A study of Homo sapiens with 4 samples.

Results

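The 10 genes described here encode a set of regulators and subunits of the anaphase-promoting complex (APC/C), with securin and separase, the pair that it governs. They were chosen by name: CDC20, FZR1, FBXO5, UBE2C, UBE2S, CDC16, CDC27, ANAPC5, PTTG1 and ESPL1. Every probe set that the platform annotation pairs with exactly 1 of these symbols was kept. This gave 25 probe sets for the 10 genes, out of 54613 probe sets tested and 19775 genes with a probe set of 1 symbol.

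RNA came from CaSki cells, a human papillomavirus-positive line of cervical squamous carcinoma, and was hybridised to 4 Affymetrix HG-U133 Plus 2.0 arrays, 1 colour each. Lentivirus had delivered either GFP, the control, or ZNF750, a zinc finger regulator of squamous differentiation, with 2 arrays for each. Both groups grew in DMEM with antibiotics and, per the labels, 0% (vol/vol) fetal bovine serum, a value that may be a misprint and that no other source used here checks. The series asked which genes ZNF750 regulates in squamous carcinoma. The vector's promoter and the time since transduction are not given in the sources used here. Whether arrays of a group came from separate cultures is stated only as biological duplicates. The p-values set each difference against a variance from these 4 arrays, drawn partly from all probe sets of similar brightness. They do not speak for other cultures.

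The APC/C is a ubiquitin ligase that marks mitotic proteins for destruction. CDC20 activates it from metaphase, and FZR1 (also called CDH1, and distinct from E-cadherin) from late mitosis into G1. The ubiquitin-conjugating enzyme UBE2C starts ubiquitin chains on its substrates and UBE2S extends them, whereas FBXO5 (EMI1) blocks the complex in S phase and G2. Once the complex has marked securin (PTTG1) and cyclin B1, separase (ESPL1) is freed to cut cohesin, and sister chromatids part. Transcripts of many of these genes rise in G2 and mitosis in cycling cells, through promoters that often carry a CHR element and CCAAT boxes.

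Promoter sequences are shown for the 3 genes with a RefSeq promoter here and the smallest adjusted p of their probe sets (CDC20, PTTG1 and UBE2S) and for the co-activator that did not pass (FZR1). Each is the 250 bases before the first listed start in RefSeq's GRCh38.p14 promoter table, 5′ to 3′ on the gene's strand. Capitals mark matches on either strand to the CHR letters TTTGAA or TTCGAA, to CCAAT, or to the E2F letters, which are TTCCCGC or TTCGCGC and TTGCCGC or TTGGCGC. Adjoining capitals can be overlapping matches.
CDC20 (chr1:43358731-43358980, plus strand): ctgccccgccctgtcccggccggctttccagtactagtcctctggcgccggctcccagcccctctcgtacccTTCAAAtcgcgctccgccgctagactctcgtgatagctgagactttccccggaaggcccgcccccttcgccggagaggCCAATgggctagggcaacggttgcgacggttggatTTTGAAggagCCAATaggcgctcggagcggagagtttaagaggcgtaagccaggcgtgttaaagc
PTTG1 (chr5:160421605-160421854, plus strand): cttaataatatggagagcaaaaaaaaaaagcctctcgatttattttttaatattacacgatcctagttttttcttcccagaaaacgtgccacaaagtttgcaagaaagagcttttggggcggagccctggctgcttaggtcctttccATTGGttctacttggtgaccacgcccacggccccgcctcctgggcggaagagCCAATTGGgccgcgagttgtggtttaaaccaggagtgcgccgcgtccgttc
UBE2S (chr19:55407789-55408038, minus strand): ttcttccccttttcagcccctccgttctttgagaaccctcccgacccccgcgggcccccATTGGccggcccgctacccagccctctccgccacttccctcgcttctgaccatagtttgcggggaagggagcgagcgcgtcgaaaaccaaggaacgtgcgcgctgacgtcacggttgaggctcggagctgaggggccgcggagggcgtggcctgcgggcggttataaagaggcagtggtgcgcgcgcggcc
FZR1 (chr19:3506061-3506310, plus strand): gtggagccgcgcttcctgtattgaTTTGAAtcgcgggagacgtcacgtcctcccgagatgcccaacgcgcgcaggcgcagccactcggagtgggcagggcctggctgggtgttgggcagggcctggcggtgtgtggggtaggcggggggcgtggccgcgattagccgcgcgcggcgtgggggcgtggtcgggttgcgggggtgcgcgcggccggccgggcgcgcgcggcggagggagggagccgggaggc

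Of the 10 genes, 9 had a promoter in the table, and UBE2C had none. A CCAAT match lay in a window of 8 of these 9 genes, all but FZR1, against 39.7% of 15384 array genes with a promoter (32.0% of all 35116 promoter windows). A CHR match lay in 4 of the 9 (CDC20, FBXO5, ESPL1 and FZR1), against 15.3% of array genes (14.3% of windows). CDC20 had CCAAT matches at 100 to 96 and at 55 to 51 bases before the start. A CHR match lay between them at 65 to 60, and another lay at 178 to 173. In ESPL1 the CCAAT match at 48 to 44 bases preceded a CHR match at 31 to 26. An E2F match lay in CDC16, CDC27 and FZR1, 3 of the 9 genes, against 17.4% of array genes (10.9% of windows). Genes with several listed starts had more than 1 window, and a match describes the letters only.

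Most probe sets of this machinery read lower in the ZNF750 arrays. Of the 25 probe sets, 9 fell and 0 rose (limma, adjusted p under 0.05 over all probe sets; 1 was higher at an unadjusted p under 0.05), against a background of 7.19% of all probe sets that fell and 4.3% that rose. With probe sets of a mean log2 under 5 left out, 11 of 24 fell and 0 rose. Over all 32037 probe sets kept in that fit, 4614 fell and 2500 rose, a larger share than over all probe sets. The 9 calls over all probe sets belonged to 8 genes: CDC20, UBE2C, UBE2S, CDC16, CDC27, ANAPC5, PTTG1 and ESPL1. The 2 without a call were FBXO5 and FZR1. In 20 of the 25 probe sets both ZNF750 arrays lay below both GFP arrays, which held for 24.3% of all probe sets. They lay above in 1, against 29.9% of all, and the groups overlapped in 4. The genes were chosen with earlier results of these data known, so these counts describe them.

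Fewer calls remained with any array left out, and how many depended on which group lost the array. Without GFP replicate 1, and likewise without GFP replicate 2, 0 of the 9 calls remained, when 1 of all 54613 probe sets was called lower each time. Without ZNF750 replicate 1, 4 remained (CDC20, UBE2S, PTTG1 and 202717_s_at of CDC16), and without ZNF750 replicate 2, 3 remained (CDC20, UBE2S and PTTG1). Far fewer of all probe sets were called lower in these fits as well. For all 9, both ZNF750 arrays lay below both GFP arrays, so the difference had to stay negative whichever array was left out. PTTG1 ranged from -0.58 to -0.57, CDC20 from -0.63 to -0.55, UBE2S from -0.71 to -0.65 and 202717_s_at of CDC16 from -1.05 to -0.76. The table was also rescaled in 3 ways: by cyclic loess, by a repeat of quantile normalization and by centring on brighter probe sets. Of the 9 calls, 8 remained under each, and ESPL1 was the one lost.

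**Figure D1:**
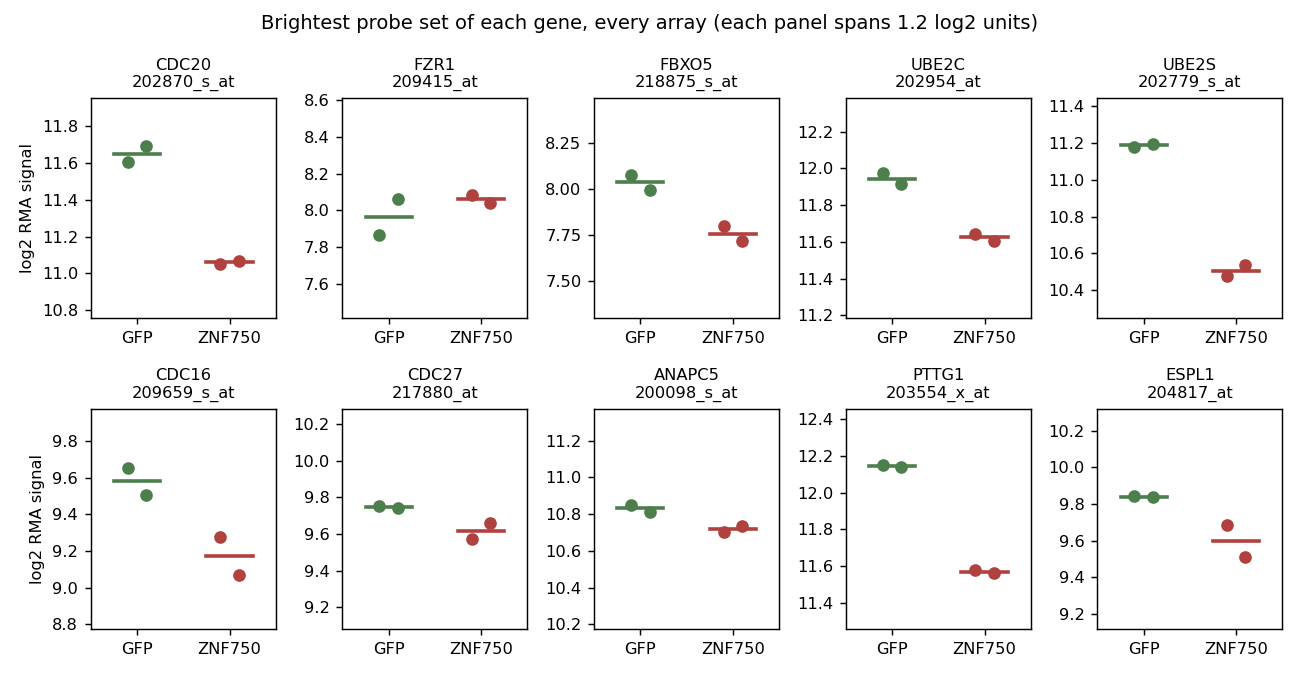
Log2 RMA signal (vertical axis) of the brightest probe set of each of the 10 genes in the 2 GFP and 2 ZNF750 arrays. Points are arrays and lines are group means. CDC20, UBE2S and PTTG1 show the widest gaps between groups, and FZR1 is the gene whose groups overlap.

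The co-activator CDC20, the partner that the spindle checkpoint holds back, had log2 signals of 11.61 and 11.69 in the GFP arrays and 11.05 and 11.07 in the ZNF750 arrays. Both ZNF750 arrays lay well below both GFP arrays. The difference was -0.59 ± 0.045 (limma standard error, n = 2 arrays per group), a signal 1.51-fold lower (limma adjusted p = 0.000710). Only 1.21% of all genes had a larger fall on their brightest probe set.

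FZR1, the co-activator of G1, did not pass on any probe set. Its brightest probe set read 7.87 and 8.06 with GFP and 8.08 and 8.04 with ZNF750, so the groups overlapped. The difference was 0.096 ± 0.085 (limma adjusted p = 0.535). Of its other probe sets, 209414_at gave 0.21 ± 0.087 with the ZNF750 arrays above both GFP arrays (limma adjusted p = 0.187). The remaining pair, 209416_s_at and 211865_s_at, gave -0.085 and -0.020 and overlapped. All 4 missed the threshold, which does not show that FZR1 stayed the same, and the sign differed between its probe sets.

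FBXO5, the inhibitor of the complex, was read by 2 probe sets that gave nearly the same difference. On 218875_s_at it read 8.08 and 7.99 with GFP and 7.80 and 7.72 with ZNF750, a difference of -0.28 ± 0.075 (limma adjusted p = 0.0544). On 234863_x_at the difference was -0.27 ± 0.081 (limma adjusted p = 0.0798), and in neither did the groups overlap. FBXO5 therefore missed the threshold over all probe sets. It passed with 1 probe set a gene (limma adjusted p = 0.0366), with dim probe sets left out (0.0349) and with the mean of its probe sets (0.0323).

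The enzyme that extends ubiquitin chains, UBE2S, had the largest fall among brightest probe sets of the 10 genes. It read 11.18 and 11.19 in the GFP arrays and 10.47 and 10.54 in the ZNF750 arrays. The difference was -0.68 ± 0.046, or 1.60-fold lower (limma adjusted p = 0.000477), and 0.673% of all genes fell further. UBE2C, which starts the chains, read 11.97 and 11.92 with GFP and 11.64 and 11.61 with ZNF750. Its groups were also apart, but the difference was smaller, at -0.32 ± 0.041 or 1.25-fold lower (limma adjusted p = 0.00409). UBE2C did not pass without the intensity trend in limma's variance prior (0.0944). The difference between the falls of UBE2S and UBE2C was not tested.

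Securin, PTTG1, the inhibitor of separase, had the smallest standard error of the 25 probe sets. It read 12.15 and 12.14 with GFP and 11.58 and 11.56 with ZNF750. The groups were far apart for their spread, with a difference of -0.58 ± 0.037 or 1.49-fold lower (limma adjusted p = 0.000400). Its fall and that of CDC20 differed by less than either standard error. PTTG1 is read by a single _x_at probe set, whose probes may also bind related transcripts. RefSeq lists the near-identical copies PTTG2 and PTTG3P, so their signal cannot be told apart from that of PTTG1 here. RefSeq also names 1 copy of CDC20, 2 of UBE2S and 5 of UBE2C, genes read by 1 probe set each. Whether those probe sets read the copies was not tested.

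Separase itself, ESPL1, had a smaller difference. On 38158_at it read 9.81 and 9.85 with GFP and 9.64 and 9.56 with ZNF750. That probe set fell by 0.23 on the log2 scale (limma standard error 0.056, 1.17-fold lower, limma adjusted p = 0.0394). On 204817_at, its brightest, the difference was -0.24 ± 0.068 and missed the threshold (limma adjusted p = 0.0661), which it passed with dim probe sets left out (0.0409) and with 1 probe set a gene (0.0445). The groups were apart on both, and the sizes were alike, so the call turned on the standard error. The call on 38158_at ended with cyclic loess (-0.17, 0.098), repeated quantile normalization (-0.18, 0.0775) and centring (-0.18, 0.0724), and without the intensity trend (0.17).

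**Figure D2:**
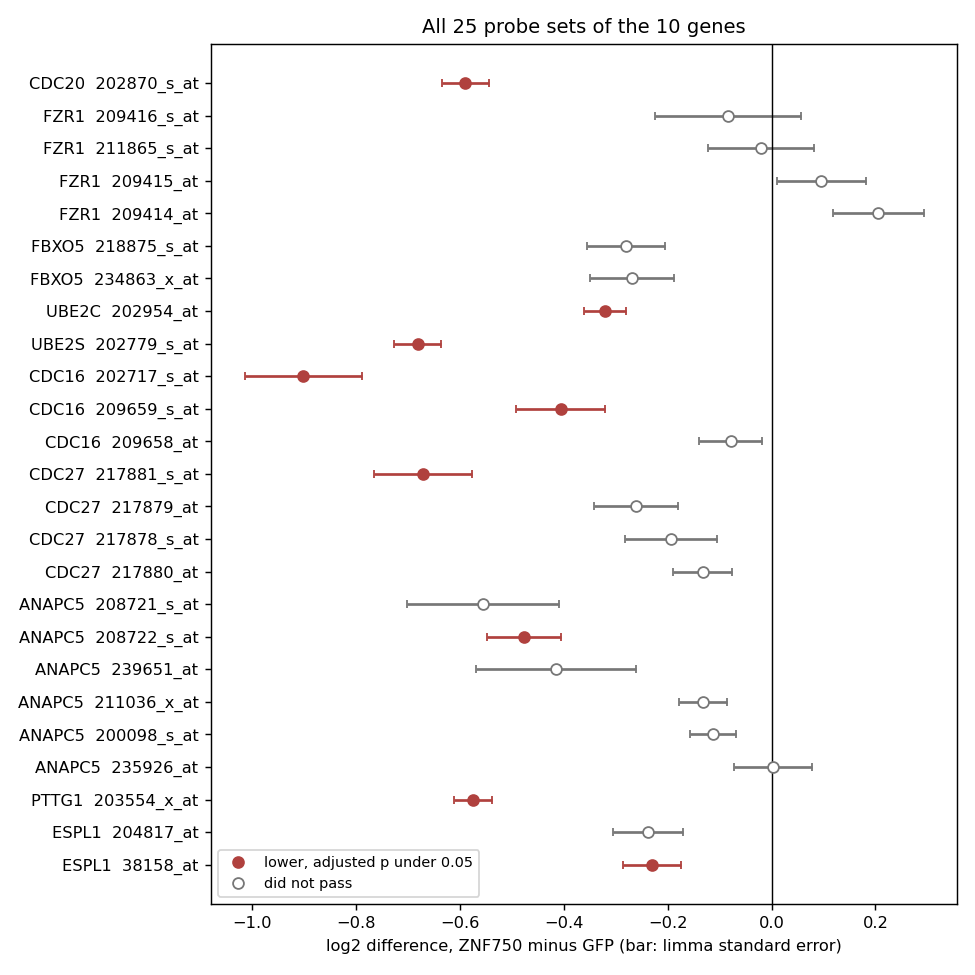
Log2 difference (ZNF750 minus GFP, horizontal axis) with limma's standard error for all 25 probe sets of the 10 genes. Filled points are the 9 that fell at an adjusted p under 0.05, and open points did not pass. The probe sets of CDC16, CDC27 and ANAPC5 spread widely, whereas those of FBXO5 and ESPL1 nearly coincide.

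The 3 subunits of the complex itself gave differences that depended on the probe set. CDC16 and CDC27 are tetratricopeptide repeat subunits of the arm that receives the co-activators, and ANAPC5 belongs to the scaffold platform. For CDC16, 202717_s_at read 8.38 and 8.19 with GFP and 7.53 and 7.24 with ZNF750, a fall of 1.87-fold (-0.90 ± 0.11, limma adjusted p = 0.00385) and the largest of the 25. A second CDC16 probe set, 209659_s_at, read 9.65 and 9.51 against 9.28 and 9.07 and fell 1.33-fold (-0.41 ± 0.085, limma adjusted p = 0.0238; 0.109 without the intensity trend). The third, 209658_at, gave -0.079 ± 0.061 and did not pass (limma adjusted p = 0.468). In all 3 the ZNF750 arrays lay below the GFP arrays. The distance of 0.82 between the extreme differences was wider than in 97.6% of the 2780 genes with 3 probe sets, whose median distance was 0.29.

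CDC27 had 4 probe sets, all with the ZNF750 arrays below the GFP arrays. On 217881_s_at it read 7.48 and 7.29 with GFP and 6.75 and 6.68 with ZNF750 and fell 1.59-fold (-0.67 ± 0.095, limma adjusted p = 0.00573). The other 3 gave -0.26, -0.19 and, on the brightest, -0.13 ± 0.056 (limma adjusted p = 0.188), and none of them passed. RefSeq lists 11 CDC27 pseudogenes, and which probe sets could read them was not tested.

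ANAPC5 had 6 probe sets, of which 1 passed. On 208722_s_at it read 8.57 and 8.65 with GFP and 8.18 and 8.09 with ZNF750 and fell 1.39-fold (-0.48 ± 0.071, limma adjusted p = 0.00699; 0.0578 without the intensity trend). Its brightest probe set, 200098_s_at, gave -0.11 ± 0.045 and did not pass (limma adjusted p = 0.164). The other 4 ranged from -0.56 on the dim 208721_s_at (limma adjusted p = 0.0516) to 0.0027 on 235926_at. The probe set 208721_s_at passed with cyclic loess (-0.63, 0.021) and with quantile normalization repeated (-0.63, 0.0206). It did not pass with centring (-0.50, 0.0609) or without the intensity trend (0.0903).

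Probe set type and RNA measures moved alongside these differences. Of the 15 probe sets of the 10 genes ending in _s_at or _x_at, 7 fell and 0 rose, against 12.1% and 5.58% of all such probe sets. Of the 10 with a plain _at ending, 2 fell, UBE2C and ESPL1, and 0 rose, against 5.24% and 3.79%. In the ACTB control, a gauge of how far along the transcript the labelling reached, the log2 signal of the 3′ probe set exceeded that of the 5′ one by 3.03 and 2.81 in the GFP arrays and by 3.76 and 3.35 in the ZNF750 arrays. In GAPDH the excess was 0.63 and 0.61 against 0.85 and 0.80. For both, the ZNF750 arrays were above the GFP arrays, and their part in the differences of the 10 genes was not tested. In bulk RNA, fewer cells in mitosis and less of a transcript per cell cannot be told apart.

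When each gene's probe sets were averaged before the fit, 9 of the 10 genes fell and 0 rose, against 8.09% and 5.27% of all genes in that fit, and FZR1 gave 0.049 ± 0.074 (limma adjusted p = 0.711). CDC16 then gave -0.46 ± 0.075, CDC27 -0.31 ± 0.059 and ANAPC5 -0.28 ± 0.063, all past the threshold. The ANAPC5 mean counts the dim 208721_s_at (-0.56) equally with the brightest, 200098_s_at (-0.11), and neither passed alone. By the brightest probe set of each gene 5 fell (CDC20, UBE2C, UBE2S, CDC16 and PTTG1), against 8.75% of all genes. The median difference over the 10 genes was -0.30, and that of all 19775 genes was 0.036.

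**Figure D3:**
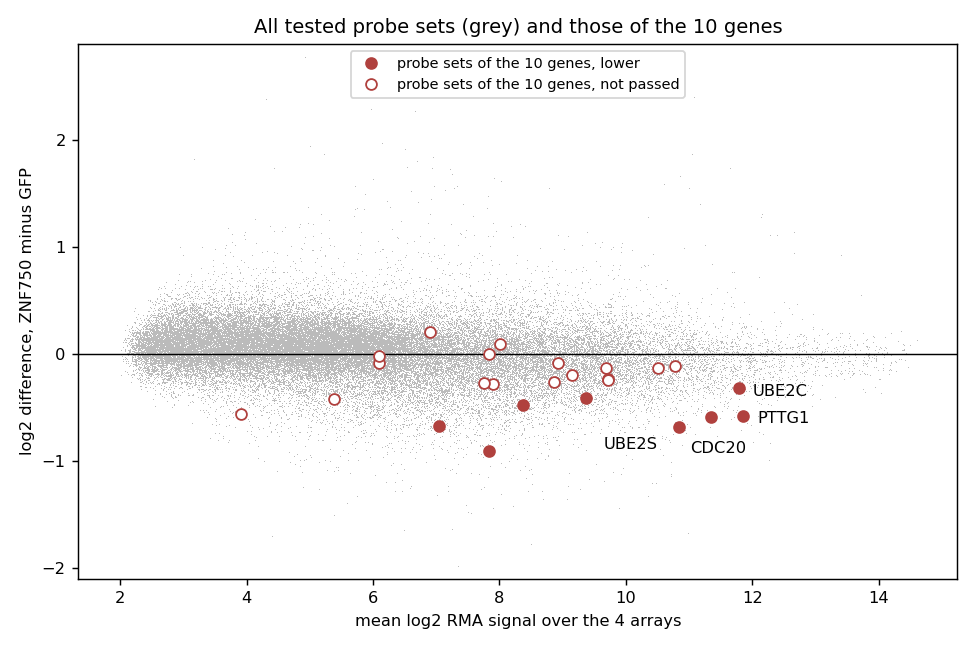
Mean log2 RMA signal over the 4 arrays (horizontal axis) against the log2 difference, ZNF750 minus GFP (vertical axis), for all 54613 tested probe sets in grey and the 25 of the 10 genes in red. Filled points fell at an adjusted p under 0.05, and 22 of the 25 lie below 0.

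Over all probe sets, 3927 fell and 2348 rose, so that 62.6% of calls were falls. That share was 54.2% with cyclic loess, 53.1% with quantile normalization repeated and 46.2% with centring. The 4 measured epithelial markers (KRT5, KRT14, EPCAM and the E-cadherin gene) had log2 signals between 10.96 and 13.09. Of these 2, KRT5 and KRT14, rose, against 6.39% of all genes. The squamous markers TP63 and KRT17 had no probe set of 1 symbol. The 8 measured fibroblast, leukocyte and endothelial markers lay between 2.56 and 8.55 and 0 passed (limma; 1 at an unadjusted p under 0.05). Their summed log2 signal was 41.8 to 42.4 in the GFP arrays and 43.1 to 43.7 in the ZNF750 arrays, and its part in the results was not tested. The ZNF750 probe set read 2.13 and 2.37 with GFP and 2.23 and 2.29 with ZNF750, so it did not show the introduced gene. Such probe sets read the 3′ end of the native mRNA, and a vector may carry the coding part alone, so this reading does not check the labels.

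Beyond the 10 genes, the remaining APC/C subunits moved in both directions. Of 10 measured, 2 fell, 1 rose and 7 did not pass, against 8.75% of all genes that fell and 6.39% that rose. The median difference was -0.17. The small subunit CDC26 read 10.14 and 10.13 with GFP and 9.66 and 9.80 with ZNF750 (-0.40 ± 0.061, limma adjusted p = 0.00762). ANAPC15, which promotes the release of the checkpoint complex, gave -0.37 ± 0.070 (0.0163), whereas ANAPC16 rose (0.24 ± 0.055, 0.0306; 0.15 and 0.0852 with the mean of its probe sets). CDC23, another repeat subunit of the arm beside CDC16 and CDC27, gave -0.026 ± 0.062 (0.844), and its sign turned under the 3 rescalings (0.037, 0.035 and 0.027). All 3 calls ended when any array was left out and without the intensity trend.

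Of 8 genes of the spindle checkpoint, which holds CDC20 in check until chromosomes are attached, 4 fell, 4 did not pass and 0 rose (limma; 0 at an unadjusted p under 0.05), against 8.75% of all genes that fell and 6.39% that rose. Their median difference was -0.19. The kinase BUB1 gave -0.46 ± 0.065 (limma adjusted p = 0.00587; -0.063 and 0.689 with the mean of its probe sets). BUB1B, the checkpoint protein that binds CDC20, gave -0.32 ± 0.060 (0.0169), and MAD2L1BP, which helps dismantle the checkpoint complex, gave -0.26 ± 0.060 (0.0346). The fourth, named after its value was seen, was the ATPase TRIP13 (-0.18 ± 0.037, 0.0198). Under each of the 3 rescalings 2 of the 8 fell, and 0 without the intensity trend. Of all 54613 probe sets, 3710, 3630 and 3585 fell under the rescalings and 754 without the trend. MAD2L1 (-0.19 ± 0.053, 0.0633) did not pass, and neither did BUB3 (0.035 ± 0.038, 0.623), whose sign turned with the mean of its probe sets. Without GFP replicate 1, GFP replicate 2 or ZNF750 replicate 2, 0 fell, and without ZNF750 replicate 1, 1 fell.

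Among 7 other regulators, 1 rose, 6 did not pass and 0 fell (limma; 1 at an unadjusted p under 0.05), against 6.39% of all genes that rose and 8.75% that fell. The median difference was 0.053. USP37, a deubiquitylase that opposes the FZR1-bound complex on cyclin A, read 8.01 and 7.96 with GFP and 8.52 and 8.51 with ZNF750. It rose 1.44-fold (0.53 ± 0.066, limma adjusted p = 0.00397) and did not pass without _s_at probe sets (0.33, 0.111) or with any array left out.

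Many transcripts of APC/C substrates, the proteins that the complex marks, fell in the same arrays. Among 30 genes 18 fell and 1 rose, against 8.75% and 6.39% of all genes, and 11 did not pass. The median difference was -0.26. The mitotic cyclins CCNB1 (-1.21 ± 0.072, limma adjusted p = 0.000321) and CCNB2 (-0.85 ± 0.063, 0.000601) and the spindle protein DLGAP5 (-1.11 ± 0.056, 0.000242) had the largest falls. CCNB2 gave -0.36 with the mean of its probe sets, and CCNB1 -0.69 without _x_at and _s_at probe sets. The kinases PLK1 (-0.67 ± 0.083), AURKB (-0.42 ± 0.051) and AURKA (-0.32 ± 0.047) fell, as did cyclin A2, CCNA2 (-0.29 ± 0.058). GMNN, the licensing inhibitor geminin, fell narrowly (-0.19 ± 0.049, 0.0488) and did not pass under the 3 rescalings (0.137, 0.152 and 0.101), without the intensity trend (0.240) or with a robust prior (0.0507). The number of substrates that fell was 0 without either GFP replicate, 6 without either ZNF750 replicate, 6 without the intensity trend (CCNB1, CCNB2, DLGAP5 and PLK1 among them), and 10 of 22 without _x_at and _s_at probe sets. Over all features, 754 of 54613 probe sets fell without the intensity trend, and 1845 of 39114 without _x_at and _s_at probe sets. Beside all of these lists stood the 0.64 larger excess of 3′ over 5′ signal in ACTB, whose part was not tested.

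For cohesin, the ring that separase cuts, listed here together with its regulators, the median difference was -0.0027. Among 14 genes 1 fell and 2 rose, against 8.75% and 6.39% of all genes, and 11 did not pass. RAD21, the subunit that separase cleaves, gave -0.014 ± 0.051 (limma adjusted p = 0.902), and its sign turned under the 3 rescalings (0.053, 0.079 and 0.038). SGO1, which protects centromeric cohesin, gave 0.065 ± 0.092 (0.719). HDAC8, the deacetylase of SMC3, fell (-0.53 ± 0.085, 0.00878). SMC3 (0.34 ± 0.079, 0.0342) and the loader subunit MAU2 (0.28 ± 0.060, 0.0264) rose, but with the mean of probe sets SMC3 gave 0.024 and MAU2 -0.012, neither passing. All 3 cohesin calls ended when any array was left out and without the intensity trend.

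**Figure D4:**
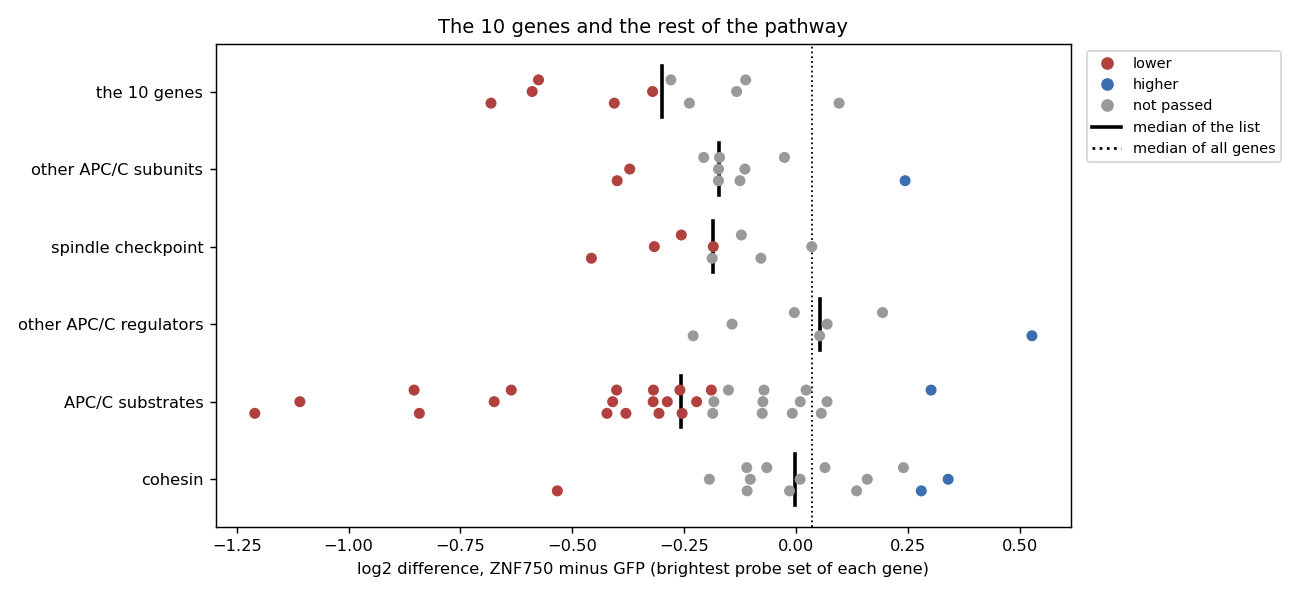
Log2 difference, ZNF750 minus GFP (horizontal axis), of the brightest probe set of each gene, by list. Red points fell, blue points rose and grey points did not pass, bars are list medians and the dotted line is the median of all genes. The 10 genes (median -0.30) and the substrates (-0.26) lie furthest to the left, and cohesin lies near 0.

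The genes whose 4 arrays lay nearest to those of CDC20, by the distance between mean-centred log2 signals over 8907 brighter genes, were KIF2C, POLE4, PLEK2, B3GALNT2 and C16orf95. KIF2C, a microtubule-depolymerizing kinesin of the centromere, was at a distance of 0.0287 log2 units. It read 10.09 and 10.15 with GFP and 9.53 and 9.57 with ZNF750. With 4 arrays in 2 groups, such closeness reflects a group difference of similar size, here from -0.59 for POLE4 to -0.55 for C16orf95. The mean of probe sets gave -0.18 for B3GALNT2 and -0.25 for C16orf95, neither passing.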

How the data were processed

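The authors deposited log2 values of 54675 probe sets, made with RMA per the submitters' processing notes, and no source used here gives its version. That method subtracts background, gives arrays the same distribution and summarises probe sets, so that fold changes of dim genes come out too small. No scanner files or detection calls were used here, and precision is limited by 4 arrays.

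The 62 control probe sets were left out. A linear model was fitted to the remaining 54613 (limma 3.58.1, R 4.3.3, lmFit, eBayes with trend = TRUE), which left 2 degrees of freedom. P-values were adjusted over all of them by Benjamini-Hochberg, and the threshold was 0.05. A two-sided exact permutation test of these arrays cannot go below p = 0.333 and was not used. In the lists, each gene was read by its probe set with 1 symbol and the highest mean. Dim means a mean log2 under 5.

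The 10 genes, the lists and the tests were chosen with earlier results of these data known. The text names all 10 genes, up to 3 called genes per list with the largest absolute difference, 13 genes fixed by name (ANAPC1 is not analysed here), ZNF750, and the 5 genes nearest to CDC20 among those with a mean of at least 7. The script was tested on simulated data. Alternatives covered the variance prior, probe sets, scaling, a replicate block, thresholds and leaving out each array.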

Additional observations from a re-analysis of the deposited data

Results flagged for a closer look

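Some control probe sets, which enter no comparison of the 10 genes, were examined. Each measure taken from them was higher in both ZNF750 arrays than in both GFP arrays. The 3′ minus 5′ difference was larger by 0.64 for ACTB and by 0.20 for GAPDH. The hybridization controls were higher by 0.42 (bioB), 0.41 (bioC), 0.37 (bioD) and 0.19 (cre). Their part in the falls of the 10 genes was not tested. Groups of 2 arrays are too small for a check of outlying arrays.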

How the results depend on the processing

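Of 344 values of the 25 probe sets under other settings, 285 kept their direction and side of the threshold, 43 lost the call, 9 gained it and 7 changed sign. The 43 lost calls all belonged to the 9 probe sets that fell, as the other 16 had no call to lose. Settings that changed only the variance prior, the block or the threshold left each difference as it was, so its direction could not turn. Those 9 became 5 without the intensity trend and 5 with a log2 difference of at least 0.5 as well. They became 2 with plain _at probe sets alone, of which there are 10. With each array left out they ranged from 0 to 4. The median of the 10 genes moved from -0.30 to -0.32 with the mean of probe sets. It was -0.24 with cyclic loess, -0.24 with quantile normalization repeated and -0.25 with centring, and ranged from -0.34 to -0.26 with each array left out. Plain _at probe sets alone gave -0.11, but over the 6 genes that have one. CDC20, FBXO5, UBE2S and PTTG1 have none, so this value is not a median of the same genes.

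Over all features, falls and rises numbered 754 and 520 without the intensity trend, 2013 and 1541 with 1 probe set a gene, 1600 and 1043 with the mean of probe sets, 1845 and 1230 with plain _at probe sets alone, 1474 and 704 at an adjusted p under 0.01, and 1457 and 961 with a log2 difference of at least 0.5. Rises were 4168 with centring. With each array left out, falls ranged from 1 to 661 and rises from 8 to 267. Over the 5 pathway lists, the 25 falls became 6 without the intensity trend, 15 at an adjusted p under 0.01 and 7 with a log2 difference of at least 0.5, and ranged from 0 to 7 with each array left out. Their 5 rises became 1, 2 and 1 in the same order, 2 with the mean of probe sets, 3 with plain _at probe sets alone, and 0 with each array left out. Some of these settings also had fewer features or arrays, and the causes of the changes were not tested.

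Values that changed sign were small and passed in neither setting, apart from MAU2. FZR1 did so on 209416_s_at (from -0.29 to 0.12 with each array left out), on 211865_s_at (0.033 with centring, and from -0.090 to 0.050 with each array left out) and on 209415_at, its brightest (from -0.0016 to 0.19). ANAPC5 did so on 235926_at (from -0.047 to 0.052 with each array left out), and by its brightest probe set with plain _at probe sets alone (0.0027). With the mean of probe sets, MAU2 gave -0.012, BUB3 -0.082 and CDC23 0.13, and BUB3 gave -0.064 with plain _at probe sets alone. Under cyclic loess, repeated quantile normalization and centring, CDC23 gave 0.037, 0.035 and 0.027 and RAD21 0.053, 0.079 and 0.038. With each array left out, CDC23 ranged from -0.077 to 0.025 and RAD21 from -0.064 to 0.035.

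The labels number the arrays of each group 1 and 2 without saying that numbers mark a shared culture or day, and the deviations of same-numbered arrays correlated at 0.13 over all probe sets. With the replicate number as a block, 11 of the 25 probe sets fell, 8 of them among the 9. The call on 38158_at of ESPL1 was lost (limma adjusted p = 0.0588), and 218875_s_at of FBXO5 (0.0483), 217879_at of CDC27 (0.0449) and 208721_s_at of ANAPC5 (0.0491) gained one. Over all probe sets, 3792 fell and 2002 rose with the block, and 24 and 5 genes of the pathway lists.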

Other observations

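Of the 11 APC/C substrates that did not pass, 4 are given here, chosen after their values were seen. They are the ones with a positive difference. The rest had negative differences, from -0.19 for KIF22 to -0.0084 for CDCA5. RRM2, a ribonucleotide reductase subunit, gave 0.069 ± 0.039 (limma adjusted p = 0.311), thymidine kinase TK1 0.0095 ± 0.043 (0.926), the licensing factor CDC6 0.056 ± 0.064 (0.640) and the phosphatase CDC25A 0.023 ± 0.069 (0.883). UHRF1, which recruits the maintenance DNA methyltransferase, was the substrate that rose and was also named after its value was seen (0.30 ± 0.043, 0.00611).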
